A study of Mus musculus with 8 samples.

Results

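The Hox genes encode homeodomain transcription factors that lie in 4 clusters and give cells along the body axis their positional identity. They were taken as all genes of the deposited count table whose symbol is Hox, a cluster letter from a to d and a number, which gave 39 genes out of 50578. They were measured by RNA-seq in mouse embryonic fibroblasts (MEFs), primary connective tissue cells, either left as controls or cultured with a single compound. The compounds were carbidopa, LY-364947 and CHIR-99021, and each of the 4 groups had 2 libraries (n = 8). All groups were wild type. The methods give C57BL/6J mid-gestation embryos as the source, without head, tail, limbs and internal organs, and passages 3 to 5. Each compound was used at 10 µM, was added 2 h after plating and was kept in the medium, which was renewed every 3 days. The time at which RNA was taken for sequencing is not given in the sources used here. Carbidopa is a blocker of the enzyme that makes dopamine from L-DOPA. LY-364947 blocks the type I receptor of TGF-beta, and CHIR-99021 switches on canonical Wnt signaling through inhibition of GSK3. The labels spell LY-364947 as LY-364747, and they call the treated cells hepatic-like. Nothing says that the 2 libraries of a group came from separate cultures, so p-values measure the spread between these libraries, which may be technical.

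Within a cluster the genes are ordered from paralog group 1 to paralog group 13, and genes of low number are used toward the head and genes of high number toward the tail and in the distal limb. Retinoic acid, Wnt and FGF signals set this expression in the embryo, and Polycomb and Trithorax proteins maintain it. Cultured fibroblasts are known to keep a Hox pattern that reflects the body region they came from. Below, paralog groups 1 to 3 are called anterior, groups 4 to 8 central and groups 9 to 13 posterior, which gives 8, 15 and 16 members.

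The clusters were placed on GRCm38 (mm10) with the GENCODE M21 annotation, which may not be the release used for counting. The 11 Hoxa genes lie on the minus strand of chromosome 6 from 52155590 to 52260880. The 10 Hoxb genes lie on the plus strand of chromosome 11 from 96194316 to 96368256, the 9 Hoxc genes on the plus strand of chromosome 15 from 102921103 to 103036852, and the 9 Hoxd genes on the plus strand of chromosome 2 from 74668310 to 74765142. Exons of neighbouring Hox genes and of antisense transcripts overlap. In 10 members more than 10% of the exon bases were shared with another gene, among them Hoxb3 at 52.9%, Hoxd3 at 62.8%, Hoxd4 at 52.3% and Hoxa3 at 27.1%. The sources do not say whether reads were counted by strand, so in these members reads of overlapping genes could not be told apart.

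Promoter windows of 300 bases, 250 before and 50 after the start site, were taken from RefSeq on GRCm38.p6. The table held 24 windows for 22 of the 39 members. The windows below belong to 3 genes that were higher and 2 that were lower under every compound. Capitals mark AGGTCA, the hexamer to which retinoic acid receptors and other nuclear receptors bind, or TGACCT, which is the same word on the other strand. The positions are chr6:52204538-52204837 on the minus strand for Hoxa5, chr11:96318017-96318316 on the plus strand for Hoxb4, chr15:103034145-103034444 on the plus strand for Hoxc4, chr2:74691641-74691940 on the plus strand for Hoxd10, and chr2:74667975-74668274 on the plus strand for Hoxd13.
Hoxa5: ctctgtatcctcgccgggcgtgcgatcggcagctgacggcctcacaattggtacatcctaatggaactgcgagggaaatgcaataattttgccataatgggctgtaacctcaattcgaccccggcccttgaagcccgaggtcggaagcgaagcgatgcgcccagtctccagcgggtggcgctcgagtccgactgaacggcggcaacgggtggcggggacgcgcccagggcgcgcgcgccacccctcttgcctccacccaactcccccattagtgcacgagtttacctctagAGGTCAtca
Hoxb4: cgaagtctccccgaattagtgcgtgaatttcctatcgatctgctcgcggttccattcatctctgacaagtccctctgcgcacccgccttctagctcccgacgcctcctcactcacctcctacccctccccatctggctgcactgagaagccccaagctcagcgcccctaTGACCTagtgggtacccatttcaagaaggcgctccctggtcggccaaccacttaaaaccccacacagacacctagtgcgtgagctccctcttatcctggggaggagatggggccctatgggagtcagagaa
Hoxc4: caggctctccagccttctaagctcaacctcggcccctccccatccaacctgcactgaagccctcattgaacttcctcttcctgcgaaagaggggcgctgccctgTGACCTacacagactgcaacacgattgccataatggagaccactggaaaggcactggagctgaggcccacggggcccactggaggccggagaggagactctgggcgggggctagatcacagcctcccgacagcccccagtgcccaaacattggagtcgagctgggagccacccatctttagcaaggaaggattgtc
Hoxd10: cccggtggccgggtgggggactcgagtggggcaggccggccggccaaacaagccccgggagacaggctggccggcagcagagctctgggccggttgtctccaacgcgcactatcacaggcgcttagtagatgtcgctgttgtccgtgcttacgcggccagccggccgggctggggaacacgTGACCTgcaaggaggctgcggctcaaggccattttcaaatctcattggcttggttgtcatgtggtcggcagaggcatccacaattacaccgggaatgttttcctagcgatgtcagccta
Hoxd13: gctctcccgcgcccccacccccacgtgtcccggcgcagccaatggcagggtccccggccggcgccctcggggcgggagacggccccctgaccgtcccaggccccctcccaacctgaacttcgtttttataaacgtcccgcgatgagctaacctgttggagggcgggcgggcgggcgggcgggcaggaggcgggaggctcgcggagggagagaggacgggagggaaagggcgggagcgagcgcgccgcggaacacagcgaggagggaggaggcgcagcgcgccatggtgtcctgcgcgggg
The hexamer lay 41 bases after the start of Hoxa5, 81 bases before that of Hoxb4, 146 bases before that of Hoxc4 and 69 bases before that of Hoxd10, and the Hoxd13 window held none. It was found in 3 of the 5 genes with a window that were higher under every compound and in 1 of the 4 that were lower under every compound. The 5 include Hoxa6 and the 4 include Hoxd11, whose calls are qualified below. Of all Hox windows 7 of 24 (29.2%) held the hexamer, against 16.3% of the 32851 windows of all genes. The remaining windows with it were those of Hoxd3 and Hoxd4, called in no comparison with MEFs, and of Hoxd8, lower under LY-364947 and CHIR-99021. The hexamer repeated in the same direction after a gap of 5 bases, the spacing of many retinoic acid response elements, was in 0 of the Hox windows and in 0.00913% of all windows. CTTTGAT, a word bound by Tcf/Lef factors, was in 4.17% of Hox windows and 3.73% of all windows. TTTATGA, a Cdx word, was in 8.33% and 3.71%, and TGATTNAT, a word of Pbx-Hox dimers, was in 8.33% and 3.22%. All words were searched on both strands. A match describes the letters of a window and not binding, and a window without a match says nothing of the factor.

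Total counts ranged from 15039566 to 20504338 reads per library, of which 7761 to 13841 fell on Hox genes. After filtering, 15154 genes were tested in a fit of all 8 libraries, with a coefficient of biological variation of 10.95%. The summed level of 16 fibroblast genes, collagens among them, ranged from 48421 to 48741 CPM (reads scaled to a library size of 1000000 after TMM scaling) in MEFs and from 13468 to 17124 CPM in treated cells. Of 18 hepatocyte genes, 12 never exceeded 3 reads, Alb (albumin) had 0 to 2 reads in MEFs and 5 to 10 in treated libraries, and Hnf4a, a liver transcription factor, had 1 to 2 and 6 to 10. The defining hepatocyte markers were thus at or near 0 in every library by absolute read count, which goes against reading the hepatic-like label as hepatocyte expression. The paper's evidence is of other kinds. It reports PCR rises relative to control, glycogen and lipid staining, epithelial-like morphology, and clustering of expression near hepatic progenitor-like cells. The carbidopa libraries differed most from each other: their summed Hox level was 252 and 209 RPKM (reads in CPM for each kilobase of exon).

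Of the 39 members, 34 were tested. Hoxb1 had 0 reads in all libraries, which allows up to 3 reads in each. Hoxb13 had at most 1 read, Hoxc12 had 2 to 10, Hoxd1 had 3 to 9, and Hoxd12 had 6 and 1 reads in MEFs and 0 to 2 reads in treated cells. Members with more than 3 reads in both libraries of a group numbered 36 in MEFs, 35 under carbidopa, 34 under LY-364947 and 35 under CHIR-99021, and 33 members met this in every group. Hoxa13 was tested only because of its level in MEFs, so its fall had to follow and no support is drawn from it. Likewise Hoxa6 was tested only because of its level in treated cells, so its rise had to follow, and Hoxd11 passed through MEFs and CHIR-99021 and not through the groups in which it was lowest. The other 31 members passed the filter in every group, and counts over them are given beside those over the 34.

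Levels between genes were compared as RPKM, with the union of a gene's exons as length, and the order of genes rests on that choice. Hoxc8 has 2832 bases in this union and 1868 in its longest coding transcript, whereas Hoxb9 has 2574 in both. Ranks can therefore change with the other length, and the order of single genes by it was not worked out. Hoxc6, a gene of the thoracic region, ranked highest in every group, at 36.0 RPKM in MEFs (35.2 and 36.8 in the 2 libraries), and Hoxb9, which acts in the rib cage, ranked second at 27.4 RPKM. In MEFs they were followed by Hoxc8 at 21.9, Hoxb6 at 20.7, Hoxc10 at 16.8, Hoxd8 at 14.3, Hoxa10 at 12.98 and Hoxa7 at 6.48 RPKM, and the libraries of each of these were apart from those of the next. From rank 9 to rank 15 (Hoxb7, Hoxb8, Hoxc9, Hoxb4, Hoxc5, Hoxb3 and Hoxc4, at 5.85 to 3.95 RPKM) neighbours overlapped. Under carbidopa, the third to the fifth rank went to Hoxc10, Hoxc8 and Hoxd8 at 15.5, 14.9 and 12.9 RPKM, whose libraries overlapped. Hoxb4 moved from rank 12 in MEFs to rank 6 under carbidopa and LY-364947 and to rank 5 under CHIR-99021. Hoxc genes held 40.9% and 41.3% of the summed Hox RPKM in the MEF libraries, and Hoxb genes held 32.9% and 32.7%.

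**Figure D1:**
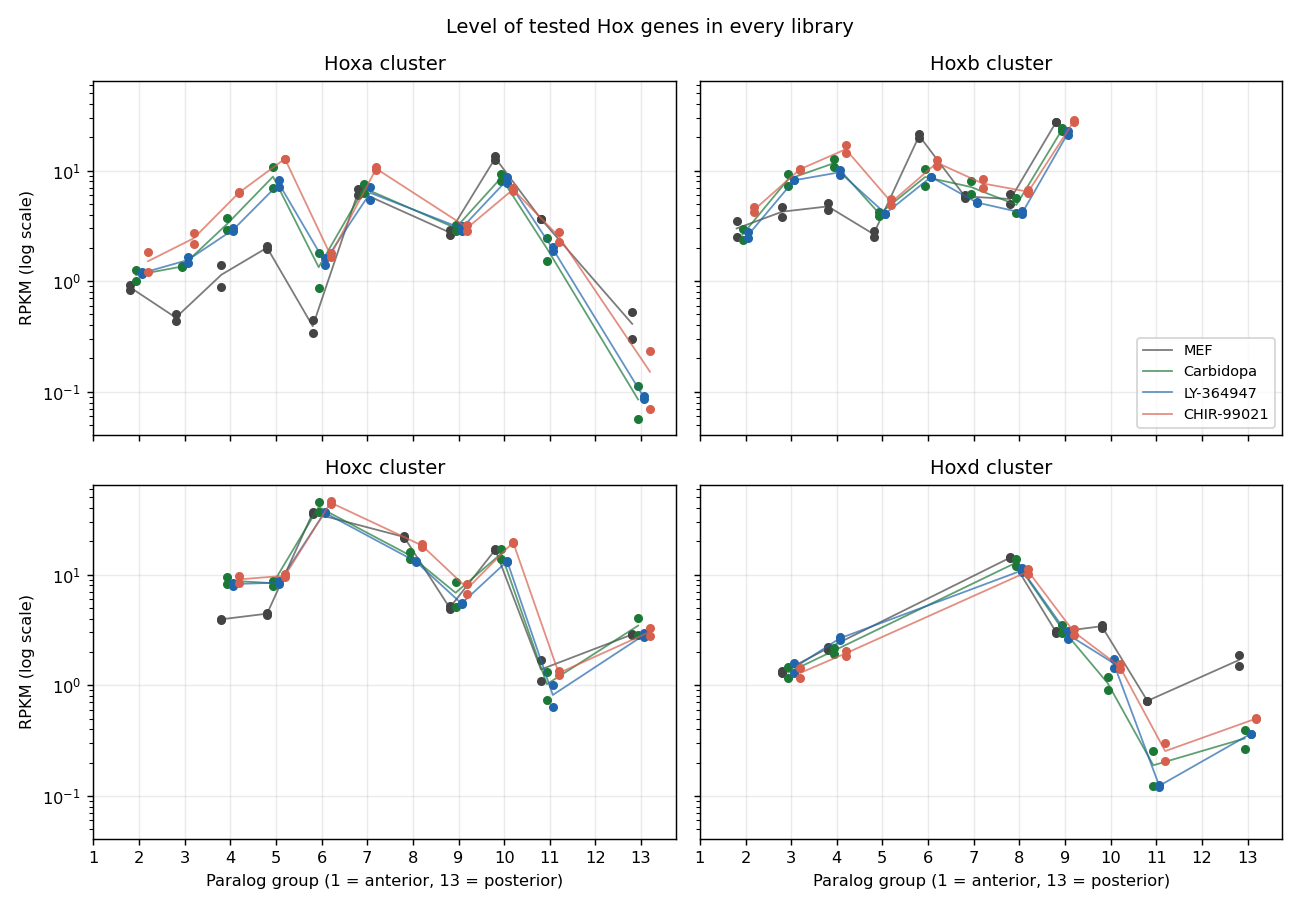
Level of 33 tested Hox genes in RPKM on a log scale by paralog group, in 4 panels for the clusters. Points are libraries and lines join group means. The black MEF line lies below the coloured lines at paralog groups 3 to 5 of Hoxa and 4 and 5 of Hoxc, and above them at groups 10, 11 and 13 of Hoxd.

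The comparison with MEFs asked how the Hox pattern of each treated group differed from that of the controls. The sources give no vehicle, culture time or medium renewal for the controls. The effect of a compound and that of a factor shared by all treated cultures therefore cannot be told apart. Below, "under" a compound names the treated group. The 3 comparisons share the MEF libraries, so they are not independent. By the edgeR quasi-likelihood test with Benjamini-Hochberg adjustment over all 15154 genes (adjusted p under 0.05), 10 members were higher and 8 lower under carbidopa, 10 higher and 10 lower under LY-364947, and 12 higher and 6 lower under CHIR-99021. Over the 31 members that passed the filter in every group, 9 were higher and 6 lower under carbidopa, 9 and 8 under LY-364947, and 11 and 5 under CHIR-99021. Called in either direction were 18, 20 and 18 of the 34 members, beside 37.7%, 31.0% and 38.8% of all genes tested. Among all genes tested 18.0% were higher and 19.7% lower under carbidopa, 13.7% and 17.2% under LY-364947, and 18.7% and 20.1% under CHIR-99021. The members' share was above the background in each case except for the lower calls under CHIR-99021, and it was close to it for the lower calls under carbidopa. Without MEF 1, MEF 2, LY-364947 1 or LY-364947 2, fewer members were lower under LY-364947, and fewer of all genes were called. The median log2 fold change of the members was 0.10 under carbidopa, -0.03 under LY-364947 and 0.22 under CHIR-99021, beside 0.04, 0.03 and 0.04 over all genes. Higher under all 3 compounds were 10 members, among them Hoxa3, Hoxa4, Hoxa5, Hoxb3, Hoxb4, Hoxc4 and Hoxc5. Another 5 were lower under all 3, namely Hoxa10, Hoxb6, Hoxd10, Hoxd11 and Hoxd13. The 10 include Hoxa6 and the 5 include Hoxd11, which did not pass the filter in every group. The share of all genes called alike in all 3 comparisons was not counted. Hoxa2, Hoxa9, Hoxb7, Hoxb8, Hoxc6, Hoxc9, Hoxc10, Hoxc11, Hoxc13, Hoxd3, Hoxd4 and Hoxd9 made up the 12 that passed in no comparison with MEFs, with log2 fold changes from -0.76 to 0.79. Among these was Hoxc6, the most abundant member, at 84.8 and 88.7 CPM in MEFs, 108.5 and 87.9 CPM under carbidopa, 88.2 and 86.8 CPM under LY-364947, and 111.2 and 104.7 CPM under CHIR-99021. Its carbidopa and LY-364947 libraries overlapped with MEFs, and both CHIR-99021 libraries lay above them (log2 fold change 0.31, adjusted p = 0.0524 by edgeR). With no filter on low counts, with only the groups compared, or without either carbidopa library, Hoxc6 was called higher under CHIR-99021.

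**Figure D2:**
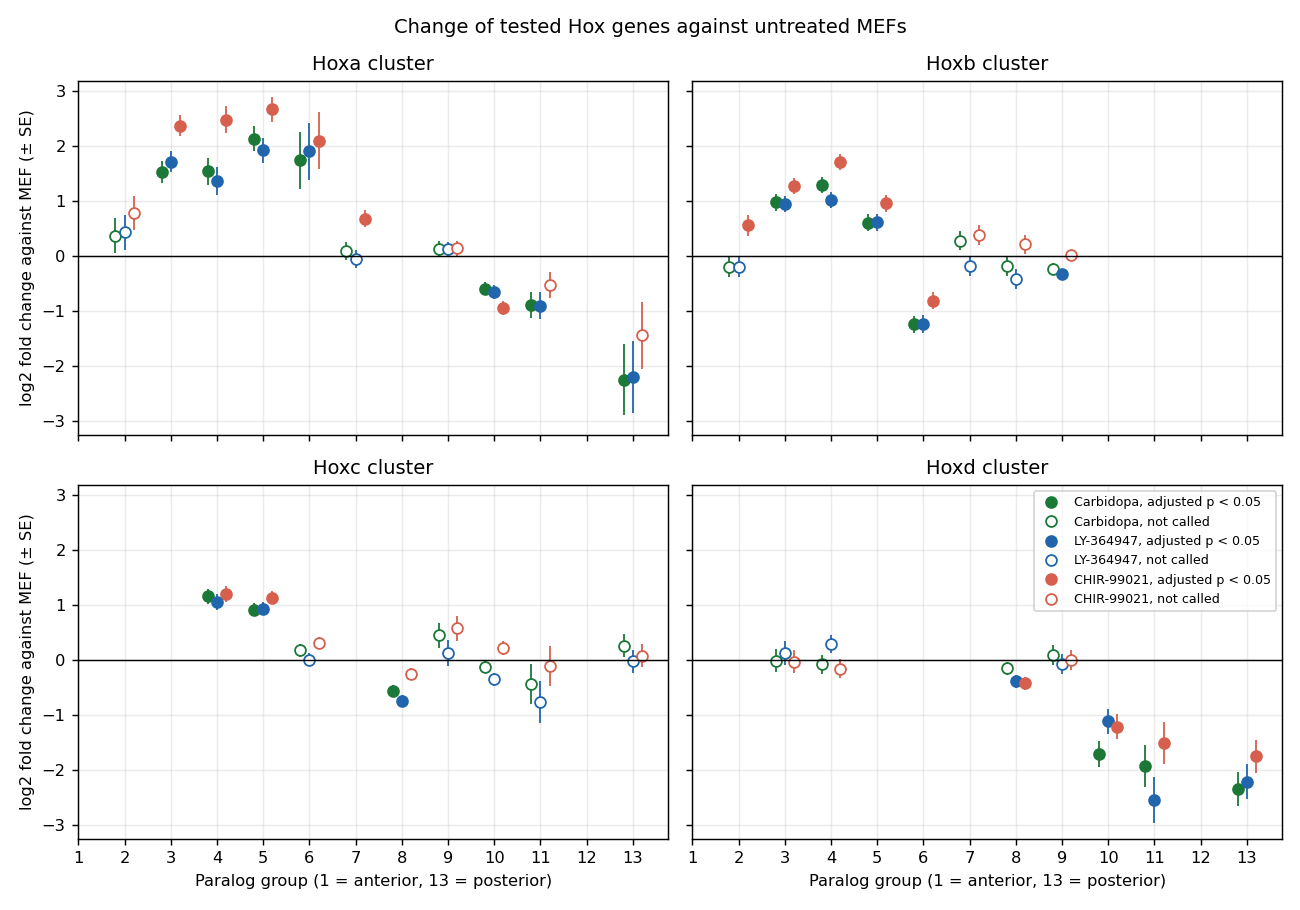
Log2 fold change against MEFs (± SE) of 33 tested Hox genes by paralog group, in 4 panels for the clusters. Filled points have an adjusted p under 0.05, open points do not. Filled points lie above 0 only at paralog groups 2 to 7, and all but Hoxb6, Hoxc8 and Hoxd8 among the filled points below 0 lie at groups 9 to 13.

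Of the 6 anterior members tested, 3 rose under carbidopa and LY-364947, 4 rose under CHIR-99021, and 0 fell under any compound. Beside this, 18.0%, 13.7% and 18.7% of all genes tested rose under carbidopa, LY-364947 and CHIR-99021, and 19.7%, 17.2% and 20.1% fell. Hoxa3, which is needed for the thymus and parathyroid, stood at 2.60 and 3.03 CPM in MEFs, 8.002 and 8.30 CPM under carbidopa, 9.88 and 8.79 CPM under LY-364947, and 16.3 and 13.1 CPM under CHIR-99021. All treated libraries lay above both MEF libraries, and the CHIR-99021 libraries lay above the rest. Its log2 fold change was 1.53 ± 0.20 (SE, adjusted p = 0.000194) under carbidopa, 1.72 ± 0.20 (8.6e-05) under LY-364947 and 2.37 ± 0.19 (6.93e-06) under CHIR-99021. Hoxb3, a hindbrain and neck gene with 52.9% of its exon bases in common with other genes, had 20.1 and 16.1 CPM in MEFs and 31.1 to 44.2 CPM in treated libraries. Its log2 fold change was 0.98, 0.95 and 1.28 under carbidopa, LY-364947 and CHIR-99021.

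Hoxb2, which acts in facial motor neurons, rose under CHIR-99021, with a log2 fold change of 0.56 ± 0.19 (adjusted p = 0.0391), and stood at -0.19 under both other compounds. This call was lost without MEF 1, CHIR-99021 1, CHIR-99021 2, LY-364947 1 or LY-364947 2 (adjusted p up to 0.268) and with DESeq2 (0.0887). Hoxa2, which patterns the second pharyngeal arch, did not pass, with log2 fold changes of 0.37, 0.43 and 0.79 under carbidopa, LY-364947 and CHIR-99021. Hoxd3 did not pass either, at -0.01, 0.13 and -0.02.

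The central members held the largest rises. Of 15 tested, 7 rose under carbidopa, 7 under LY-364947 and 8 under CHIR-99021, while 2, 3 and 2 fell. Without Hoxa6 the rises numbered 6, 6 and 7 of 14. All genes tested rose in 18.0%, 13.7% and 18.7% of cases and fell in 19.7%, 17.2% and 20.1%. The falls of central members were near that share, and nothing is read from their number. Hoxa5, a regulator of lung and airway development, stood at 3.87 and 3.68 CPM in MEFs, 20.1 and 13.02 CPM under carbidopa, 13.3 and 15.3 CPM under LY-364947, and 24.0 CPM in both CHIR-99021 libraries. Treated libraries did not overlap with MEFs, and the carbidopa libraries were on both sides of LY-364947. The log2 fold change of Hoxa5 was 2.13 ± 0.22 (SE, adjusted p = 4.15e-05) under carbidopa, 1.92 ± 0.23 (9.86e-05) under LY-364947 and 2.67 ± 0.22 (7.91e-06) under CHIR-99021, or 4.39-fold, 3.79-fold and 6.36-fold. Hoxa4, which patterns the cervical vertebrae, stood at 2.23 and 1.42 CPM in MEFs, 5.88 and 4.67 CPM under carbidopa, 4.49 and 4.85 CPM under LY-364947, and 10.02 and 10.2 CPM under CHIR-99021. It was highest under CHIR-99021, where the log2 fold change was 2.48 ± 0.24 (adjusted p = 2.5e-05), beside 1.54 and 1.37 under carbidopa and LY-364947. Hoxb4, known for expanding blood stem cells, stood at 11.4 and 12.97 CPM in MEFs, 32.3 and 27.5 CPM under carbidopa, 23.4 and 26.1 CPM under LY-364947, and 43.3 and 36.7 CPM under CHIR-99021. Its groups did not overlap with each other, and its log2 fold change was 1.30 ± 0.15 (7.03e-05), 1.02 ± 0.15 (0.000413) and 1.71 ± 0.15 (9.16e-06).

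Hoxc4 and Hoxc5, neighbours in the Hoxc cluster that act at the neck and upper thorax, rose under all compounds. Hoxc4 had 10.3 and 10.001 CPM in MEFs and 20.4 to 24.95 CPM in treated libraries, with log2 fold changes of 1.16, 1.06 and 1.20 under carbidopa, LY-364947 and CHIR-99021. Hoxc5 had 13.98 and 13.4 CPM in MEFs and 24.5 to 31.0 CPM in treated libraries, with log2 fold changes of 0.92, 0.93 and 1.14. The treated libraries of both genes lay above all MEF libraries. Hoxb5 rose too, with log2 fold changes of 0.61, 0.62 and 0.96, and lost the call under carbidopa and LY-364947 without MEF 2 (adjusted p = 0.105 and 0.111), and under LY-364947 also without LY-364947 1 or LY-364947 2 (0.0563 and 0.0635).

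Hoxa6 had few reads, 4 and 6 in MEFs and 16 to 34 in treated libraries. Its log2 fold changes were 1.74, 1.91 and 2.10, and the calls were lost without MEF 1 or MEF 2 under every compound, without Carbidopa 2 under carbidopa, and without LY-364947 1 or LY-364947 2 under LY-364947 (adjusted p up to 0.127). Hoxa7 rose under CHIR-99021, from 17.5 and 19.8 CPM to 30.8 and 29.1 CPM, with a log2 fold change of 0.68 (adjusted p = 0.00706) that was lost without MEF 1 or CHIR-99021 1 (0.0688 and 0.0537), and stood at 0.09 and -0.05 under carbidopa and LY-364947.

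Hoxb6, a thoracic gene that lies between Hoxb5, which rose, and Hoxb7, which did not pass, went the other way. It stood at 42.0 and 39.1 CPM in MEFs, 20.1 and 14.2 CPM under carbidopa, 17.2 CPM in both LY-364947 libraries, and 24.6 and 21.6 CPM under CHIR-99021. Each MEF library lay above all treated libraries, and the log2 fold change was -1.24 ± 0.16 (SE, adjusted p = 0.000183) under carbidopa, -1.24 ± 0.16 (0.000197) under LY-364947 and -0.81 ± 0.16 (0.0026) under CHIR-99021. Hoxc8, which acts in brachial motor neurons and the thoracic skeleton, fell under carbidopa and LY-364947 by 0.56 and 0.74 on the log2 scale, from 60.9 and 63.3 CPM in MEFs to 37.0 to 45.5 CPM, and did not pass under CHIR-99021 (-0.26, adjusted p = 0.0877). Hoxd8 fell under LY-364947 and CHIR-99021 by 0.38 and 0.42 on the log2 scale, and both calls were lost without either MEF library, the first also without either LY-364947 library and the second also without CHIR-99021 1 (adjusted p up to 0.186).

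**Figure D3:**
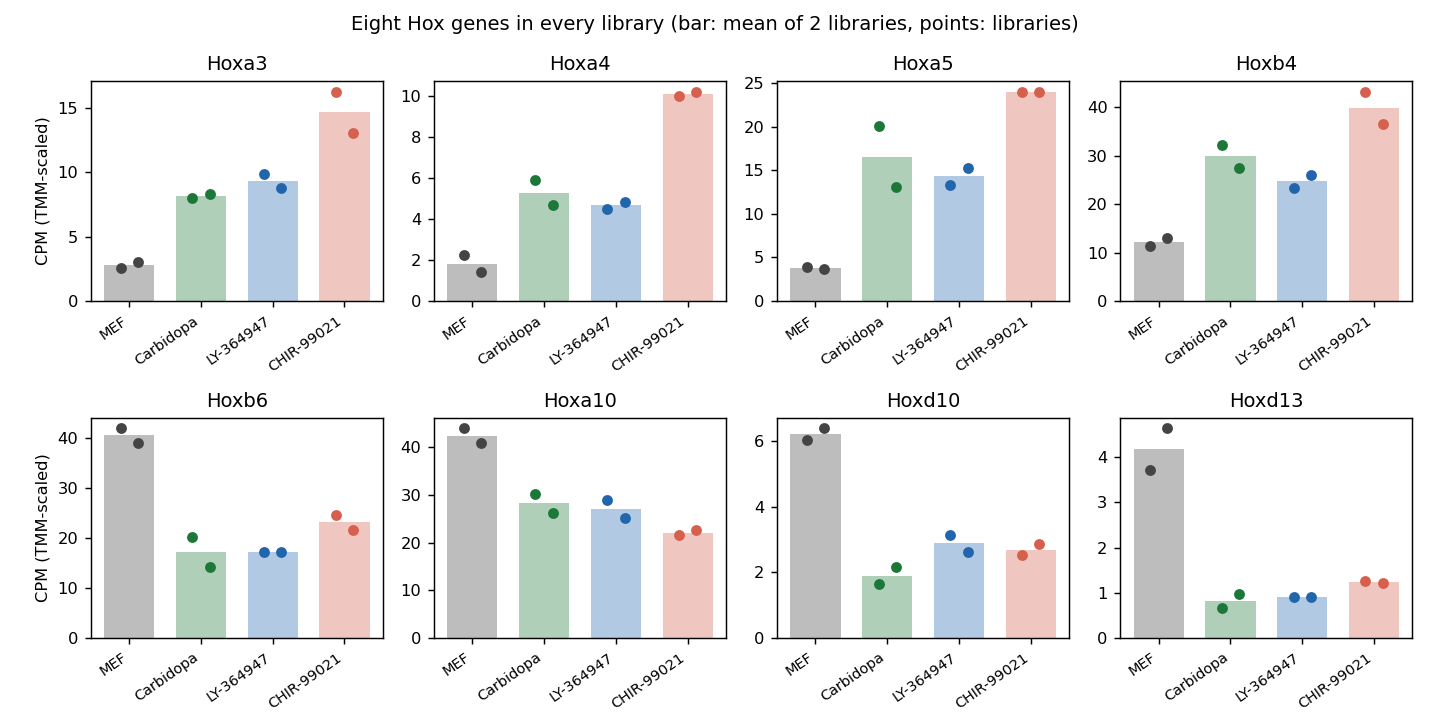
CPM of Hoxa3, Hoxa4, Hoxa5, Hoxb4, Hoxb6, Hoxa10, Hoxd10 and Hoxd13 in every library (points) with the mean of the 2 libraries of a group (bars from 0). The upper 4 genes are lowest in MEFs and highest under CHIR-99021, and the lower 4 are highest in MEFs, with no overlap between MEF and treated libraries.

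Of the 13 posterior members tested, 0 rose under any compound, and 6 fell under carbidopa, 7 under LY-364947 and 4 under CHIR-99021. Without Hoxa13 and Hoxd11 the falls numbered 4, 5 and 3 of 11. Of all genes tested, 18.0%, 13.7% and 18.7% rose and 19.7%, 17.2% and 20.1% fell under carbidopa, LY-364947 and CHIR-99021. The 3 of 11 under CHIR-99021 were near that share. Hoxd13, which patterns the digits and external genitalia, had 50 and 72 reads in MEFs, 14 and 21 under carbidopa, 16 and 17 under LY-364947, and 22 and 21 under CHIR-99021. The treated libraries lay below the MEF libraries, at 0.66 to 1.27 CPM against 3.72 and 4.65 CPM. Its log2 fold change was -2.34 ± 0.31 (SE, adjusted p = 0.000224) under carbidopa, -2.21 ± 0.31 (0.000376) under LY-364947 and -1.75 ± 0.30 (0.00125) under CHIR-99021. Hoxd10, a gene of the lumbar region and the hindlimb, had 81 and 99 reads in MEFs, 35 and 46 under carbidopa, 56 and 49 under LY-364947, and 44 and 49 under CHIR-99021. On the CPM scale these were 6.02 and 6.39 in MEFs and 1.65 to 3.14 in treated libraries, without overlap. Its log2 fold change was -1.71 ± 0.23 (0.000281), -1.11 ± 0.23 (0.00389) and -1.21 ± 0.23 (0.00226).

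Hoxd11, which acts in the forearm and kidney, had 41 and 47 reads in MEFs, 11 and 23 under carbidopa, 9 and 10 under LY-364947, and 22 and 15 under CHIR-99021. Its log2 fold change was -1.92 under carbidopa, -2.53 under LY-364947 and -1.502 under CHIR-99021, and the last of these was lost without MEF 1, MEF 2 or CHIR-99021 2 (adjusted p = 0.0557, 0.0626 and 0.0799). Hoxa10, which sets the rib-free lumbar vertebrae and acts in the uterus, was the most abundant posterior gene of its cluster in MEFs, at 44.0 and 40.8 CPM in MEFs, 30.3 and 26.2 CPM under carbidopa, 28.9 and 25.1 CPM under LY-364947, and 21.5 and 22.6 CPM under CHIR-99021. It was lowest under CHIR-99021, and its log2 fold change was -0.59, -0.65 and -0.94 (adjusted p = 0.00407, 0.00237 and 0.000211).

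Hoxa11, a partner of Hoxd11 in the forearm, fell under carbidopa and LY-364947 by 0.88 and 0.90 on the log2 scale. These calls were lost without MEF 1 or MEF 2, and under LY-364947 also without LY-364947 1 or LY-364947 2 (adjusted p up to 0.0999), and under CHIR-99021 it did not pass (-0.52, adjusted p = 0.102). Hoxa13, a limb-end and genital gene like Hoxd13, had 10 and 20 reads in MEFs and 3 to 10 in treated libraries. Its calls under carbidopa and LY-364947 were lost with DESeq2 (adjusted p = 0.0855 and 0.12) and without MEF 2. The carbidopa call was also lost without Carbidopa 1, and the LY-364947 call without MEF 1, LY-364947 1 or LY-364947 2. Hoxb9 fell under LY-364947 by 0.33 on the log2 scale, a call lost without MEF 1, MEF 2, LY-364947 1 or LY-364947 2 (adjusted p up to 0.187).

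The posterior members of the Hoxc cluster did not pass in either direction. Hoxc10, a lumbar and hindlimb gene, had 31.7 and 32.5 CPM in MEFs, 32.5 and 26.6 CPM under carbidopa, 25.5 and 24.98 CPM under LY-364947, and 37.8 and 37.1 CPM under CHIR-99021. It was called lower under LY-364947 with RLE size factors, with only the groups compared, or without either carbidopa library. Hoxc9, a thoracic gene, had log2 fold changes of 0.45, 0.13 and 0.58 against MEFs under carbidopa, LY-364947 and CHIR-99021 (adjusted p = 0.143, 0.719 and 0.0669). Without Carbidopa 2, Hoxc9 and Hoxc13, a hair and nail gene, were higher under carbidopa (log2 fold change 0.79 and 0.50, adjusted p = 0.00121 and 0.0399). Without Carbidopa 1 or Carbidopa 2, Hoxc9 and Hoxc10 were higher under CHIR-99021 (Hoxc9 0.59, Hoxc10 0.23). With all libraries kept, Hoxc9 was called higher with no filter on low counts (carbidopa, adjusted p = 0.0327, and CHIR-99021, 0.00372), and under CHIR-99021 also with only the groups compared (0.00604) and with the replicate number as a block (0.0378). The count of 0 posterior rises thus holds for the settings used here and not under these others.

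Across the tested members, log2 fold change against MEFs was lower for higher paralog groups. Spearman's rho between them was -0.65 under carbidopa, -0.74 under LY-364947 and -0.70 under CHIR-99021 (n = 34 genes, which share libraries and clusters). Over the 24 members that share at most 10% of their exon bases, rho was -0.73, -0.72 and -0.76, and over the 31 members that passed the filter in every group it was -0.61, -0.72 and -0.66. By cluster, the Hoxa members had a median log2 fold change of 0.37, 0.43 and 0.79 under carbidopa, LY-364947 and CHIR-99021, with 5, 5 and 6 of 11 higher and 3, 3 and 1 lower, or 4, 4 and 5 of 9 higher and 2, 2 and 1 lower without Hoxa6 and Hoxa13. Of the Hoxd members, 7 were tested, 0 rose under any compound, and 3, 4 and 4 fell, or 2, 3 and 3 of 6 without Hoxd11. In the Hoxc cluster 2 of 8 tested rose under each compound, both at its anterior end, and 1, 1 and 0 fell. For these cluster counts the shares of all genes tested were 18.0%, 13.7% and 18.7% higher and 19.7%, 17.2% and 20.1% lower. The Hoxc counts were near those shares, and nothing is read from their number.

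The summed Hox level was 226 ± 1.49 RPKM in MEFs (SD, n = 2), 230 ± 30.4 under carbidopa, 209.5 ± 2.48 under LY-364947 and 273 ± 7.27 under CHIR-99021. Posterior genes made up 36.9% and 36.4% of it in the MEF libraries, and from 28.1% to 30.6% in the 6 treated libraries. The anterior share was 4.92% and 4.80% in MEFs and between 7.09% and 8.41% in treated libraries. The Hoxd cluster held 11.9% in both MEF libraries and 6.87% to 10.0% in treated libraries. In all 3 shares the MEF libraries were apart from the treated ones. The order of MEFs and LY-364947 in the summed level depended on the scaling. With raw library totals in place of TMM sizes the sum was 200.3 RPKM in MEFs and 217 under LY-364947, the reverse of the order above. In bulk samples, fewer cells of a type and less RNA per cell cannot be told apart.

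**Figure D4:**
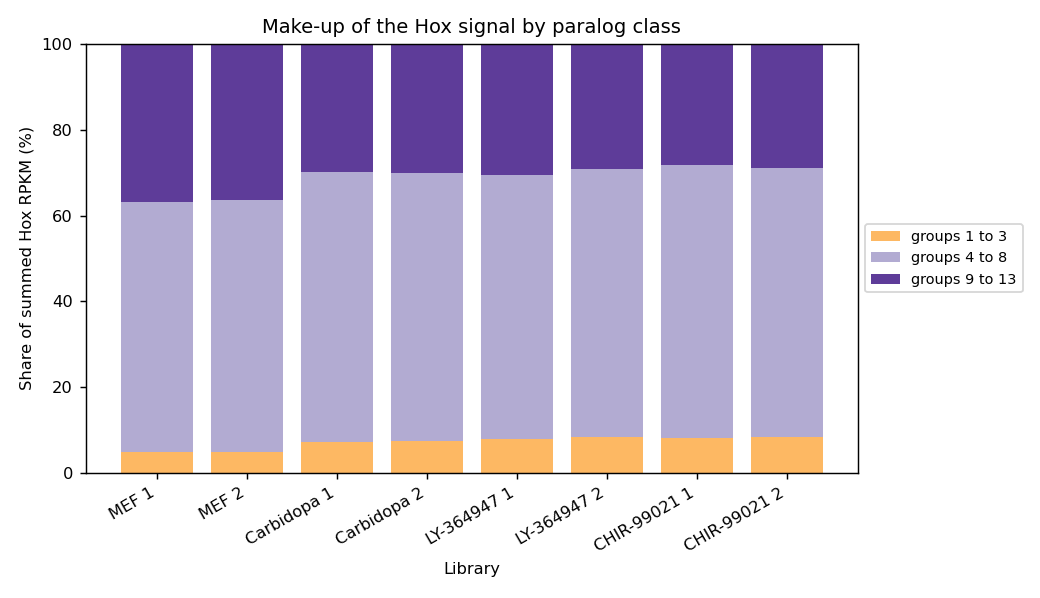
Share of the summed Hox RPKM (%) held by anterior (groups 1 to 3), central (4 to 8) and posterior (9 to 13) genes in each of the 8 libraries. The posterior share, at the top of each bar, is larger in both MEF libraries than in the 6 treated libraries.

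The compounds, used at the same dose, were also compared with each other. CHIR-99021 gave higher levels than carbidopa in 4 of the 34 members and lower in 0, where 6.62% of all genes were higher and 8.08% lower by the same edgeR test. The 4 were Hoxa3 (log2 difference 0.85 ± 0.17, SE, adjusted p = 0.00794), Hoxa4 (0.94 ± 0.20, 0.0132), Hoxb2 (0.75 ± 0.19, 0.0243) and Hoxa7 (0.59 ± 0.16, 0.0311). Each of these genes shares more than 10% of its exon bases with another gene, and all 4 calls were lost without CHIR-99021 1 (adjusted p up to 0.192). Without CHIR-99021 2 fewer members and fewer of all genes were called, and without Carbidopa 1 more of both. Without Carbidopa 2, Hoxa10 and Hoxd8 were lower under CHIR-99021. With 1 library left out, the median log2 difference over the members ranged from 0.20 to 0.41. The median log2 difference over the members was 0.34, beside -7e-04 over all genes.

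Against LY-364947, CHIR-99021 gave higher levels in 10 members and lower in 0, where 6.45% of all genes were higher and 7.69% lower. These were Hoxa4 (log2 difference 1.11 ± 0.21, adjusted p = 0.00658), Hoxb4 (0.69 ± 0.14, 0.00851), Hoxc10 (0.57 ± 0.12, 0.0116), Hoxa7 (0.73 ± 0.16, 0.0132), Hoxc8, Hoxb2, Hoxa5, Hoxa3, Hoxb9 and Hoxb8. The last 6 had log2 differences of 0.49, 0.75, 0.75, 0.65, 0.36 and 0.63. The list runs from paralog group 2 to paralog group 10, and rho between paralog group and the log2 difference was 0.01 (n = 34). Without any 1 library of CHIR-99021 or LY-364947, fewer members and fewer of all genes were called. Without either carbidopa library more members and more of all genes were called. None of these calls held with each library left out in turn. The median log2 difference over the members was 0.37, beside 0.01 over all genes, and 0.33 to 0.49 with 1 library left out. Between LY-364947 and carbidopa, 0 members differed by edgeR and 0 by DESeq2, where 0.0132% of all genes differed by edgeR. At an unadjusted p under 0.05 edgeR counted 3 of 34, close to the 9.02% of all genes at that level, so nothing is read from them. They were Hoxb7 (log2 difference -0.47), Hoxd10 (0.60) and Hoxd4 (0.37), and the smallest adjusted p was 0.519. Differences of the 34 members lay between -0.61 and 0.60 with a median SE of 0.18. Without Carbidopa 2, 7 of 35 members were lower under LY-364947 than under carbidopa (Hoxa5, Hoxb7, Hoxc6, Hoxc8, Hoxc9, Hoxc10 and Hoxd8), where 24.1% of all genes were called in either direction.

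**Figure D5:**
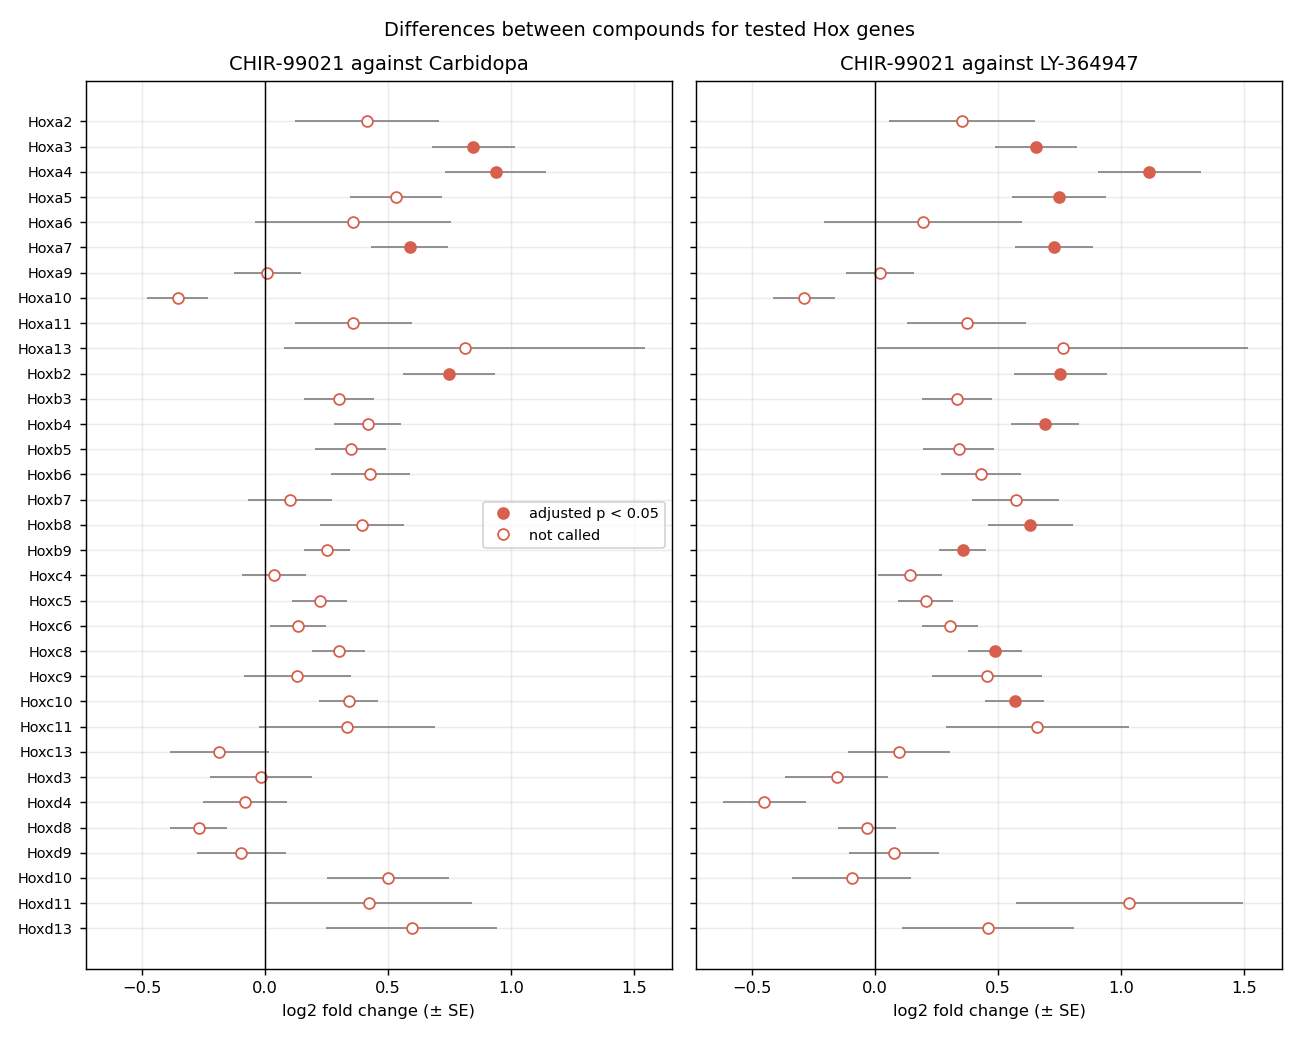
Log2 difference (± SE) of CHIR-99021 from carbidopa and from LY-364947 for 33 tested Hox genes. Filled points, with an adjusted p under 0.05, all lie to the right of 0, and most open points do too.

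Genes that work with or control Hox genes were read from the same test. Of 9 Hox cofactors, which bind DNA beside Hox proteins, 5 rose and 2 fell under carbidopa, 4 and 2 under LY-364947, and 5 and 2 under CHIR-99021. Their called shares of 77.8%, 66.7% and 77.8% lay above the 37.7%, 31.0% and 38.8% of all genes. The lower calls alone, 22.2% under each compound, were close to the 19.7%, 17.2% and 20.1% of all genes. Meis2 rose by 1.76, 1.75 and 1.81 (log2), while Pknox2 had log2 fold changes of -2.10, -2.10 and -1.56, all lower. Of 24 Polycomb, Trithorax and related regulators, 21 were tested, and 2, 3 and 5 rose and 2, 1 and 1 fell under carbidopa, LY-364947 and CHIR-99021. These shares of 19.0%, 19.0% and 28.6% called lay below the 37.7%, 31.0% and 38.8% of all genes. Cbx7, a Polycomb subunit, rose by 1.75, 1.502 and 1.31, and Ezh2, the methyltransferase, did not pass (0.26, 0.12 and 0.07). Of 7 tested genes of the retinoic acid response, 5, 5 and 6 rose and 1 fell under each compound. These called shares of 85.7%, 85.7% and 100.0% lay above those of all genes. Rarb, a retinoic acid receptor and target, had 12 and 14 reads in MEFs and 5694 to 9037 in treated libraries, and Cyp26b1, which degrades retinoic acid, had 157 and 170 reads in MEFs and 4001 to 12790 in treated libraries. Cyp26a1 had 0 reads in both MEF libraries and 11 to 24 in treated libraries, and Crabp2, a carrier of retinoic acid in the cell, rose under CHIR-99021 (log2 fold change 1.77) and stood at 0.03 and 0.02 under carbidopa and LY-364947. The summed level of the list was 61.9 and 63.2 CPM in MEFs and 994 to 1553 CPM in treated libraries. The part of these genes in the Hox changes was not tested.

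Of 47 other transcription factors of positional identity, 33 were tested, and 8, 7 and 6 rose and 13, 15 and 8 fell. Under CHIR-99021 the 42.4% called was close to the 38.8% of all genes, and the 18.2% higher to 18.7%. The homeobox gene Emx2 rose by 1.19, 1.05 and 1.20 on the log2 scale. Lhx9, a limb and gonad gene, had log2 fold changes of -3.61, -3.44 and -2.497 and was lower under all compounds. Prrx2, a limb and skin mesenchyme gene, was lower too, at -1.80, -2.30 and -2.03. Osr1, a kidney and limb gene, rose by 1.17 and 1.02 under carbidopa and LY-364947 and did not pass under CHIR-99021 (-0.10). Of 18 noncoding transcripts of the clusters, 11 were tested, and 3, 2 and 3 rose and 0 fell. Their called shares of 27.3%, 18.2% and 27.3% lay below the 37.7%, 31.0% and 38.8% of all genes. Taken as higher calls alone, they lay above the 18.0%, 13.7% and 18.7% of all genes. Hoxaas3 rose by 2.64, 3.17 and 2.58 and 5730596B20Rik by 1.504, 2.03 and 2.04, both in the Hoxa cluster, and Hoxb5os rose by 1.37 and 1.33 under carbidopa and CHIR-99021. Hotair, a noncoding gene of the posterior Hoxc cluster, had 12 and 14 reads in MEFs and 2 to 17 in treated libraries and did not pass. Several of the noncoding transcripts overlap Hox genes on the opposite strand.

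Markers of cell types were read from the same test. Of all genes tested, 37.7%, 31.0% and 38.8% were called under carbidopa, LY-364947 and CHIR-99021. Of 17 macrophage genes, 16 were tested, and 15, 15 and 16 fell under carbidopa, LY-364947 and CHIR-99021. Their summed level was 1503 and 1549 CPM in MEFs, 432 to 443 CPM under carbidopa, 323 to 332 CPM under LY-364947 and 114 to 120 CPM under CHIR-99021. Mrc1, a macrophage receptor, had 538 and 757 reads in MEFs and 10 and 13 under CHIR-99021. Of 16 fibroblast genes, 14 fell and 1 rose under each compound, with Col1a2 at -1.98, -1.89 and -2.30 (log2). Of 8 epithelial genes 3 were tested, and 1, 1 and 3 rose, Krt19 being the gene that rose under each. Their summed level was 3.16 and 4.16 CPM in MEFs and 9.82 to 21.5 CPM in treated libraries. Of 6 endothelial genes 3 were tested, and 1, 1 and 2 fell, Emcn under each. Epithelial and endothelial calls under carbidopa and LY-364947 were each 33.3%, close to the share of all genes. Of the hepatocyte genes 1 was tested, Trf, and it rose under carbidopa (log2 fold change 0.80). Among 5 sex-linked genes, Xist and Ddx3y fell under all compounds, Xist by 1.99, 1.47 and 1.23 on the log2 scale, and Eif2s3y, Kdm5d and Uty did not pass. The 40.0% of sex-linked genes called was close to the share of all genes called in either direction under carbidopa and CHIR-99021. The part of these shifts in the Hox changes was not tested.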

How the data were processed

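Control MEFs and MEFs given 1 of 3 compounds were profiled by RNA-seq (2 libraries each). Reads were mapped by the authors to mm10 with STAR 2.4.2a and counted per gene with featureCounts, and the deposited values are raw counts of reads per gene for 8 libraries. The authors normalized expression with DESeq2 for their own analysis, and those values are not used here. The annotation release and the strand setting of the counting are not given in the sources used here. The labels name a SMARTER library kit, whereas the methods name NEBNext Ultra. Groups were taken from the sample labels.

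Of 50578 gene identifiers, 50354 were found in GENCODE M21 (GRCm38), including all 39 Hox genes. Differences were tested in R 4.3.3 with edgeR 4.0.16 (filterByExpr for low counts, TMM factors, the quasi-likelihood test, and a model of group alone over the 8 libraries), and p-values were adjusted by Benjamini-Hochberg over 15154 genes. CPM and RPKM used TMM library sizes, RPKM with the union of a gene's exons as length. A count of 0 allows up to 3 reads, and such limits cover counting error only, since the reads carry no molecular identifiers. The Hox genes and the gene lists (cofactors, regulators, retinoid response, other positional, cluster noncoding, macrophage, fibroblast, hepatocyte, epithelial, endothelial and sex-linked genes) were chosen with earlier results of these data known. Fold changes with errors were planned for the 4 Hox genes with the smallest p and the 4 with the largest change of each comparison. Some of these, such as Hoxa6, Hoxc4 and Hoxd11, are given without errors, and Hoxa13 without a fold change. Up to 4 genes of each list with the smallest p are named. Hoxc9, Hoxc10, Hoxc13, Hoxb7, Hoxc6, Ezh2, Cyp26a1, Hotair, Hnf4a and Alb were named after their values were seen. The method was tested on simulated data. Replicates of each group differed by more than sampling noise, and each library was counted once.

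Alternatives were DESeq2 1.42.0 (Wald test), RLE size factors, no filter, a minimum of 10 counts in each library, models of each pair of groups by itself, the replicate number as a block, leaving out each library, leaving out Hox genes with over 10% shared exon bases, and, for levels, the longest coding transcript as length and raw library totals. Protein sequences were not used here. Values of 1 Hox gene and 1 cofactor are not reported here, but both are included in the counts, sums and medians.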

Additional observations from a re-analysis of the deposited data

How the results depend on the processing

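Of 56 Hox calls against MEFs, 39 held under every alternative in which they were tested. Of these, 28 did so under all 15 and 11 under fewer because the member dropped out. Of the 14 calls between compounds, 0 held under every alternative, and 0 calls changed sign. The alternative without members with shared exons took its values from the main fit. A member that remained could not lose its call there, so no support is drawn from it. Leaving out members with shared exons left 7 members higher against MEFs under each compound. For CHIR-99021 it left 0 higher against carbidopa and 6 against LY-364947. The numbers fell because called members were themselves among those left out, all 4 of them in the comparison with carbidopa. The median log2 fold change of LY-364947 against MEFs moved to -0.13 without these members and to -0.0784 with DESeq2. With the longest coding transcript as length, the summed RPKM was 277 (MEFs), 282 (carbidopa), 257 (LY-364947) and 335 (CHIR-99021), and the posterior share 32.6%, 26.3%, 26.3% and 24.7%. With raw library totals the sum was 200.3 (MEFs), 217 (LY-364947) and 281 (CHIR-99021), which reversed the order of MEFs and LY-364947.

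Leaving out each library in turn, with the lone library assumed to vary like the other groups, gave these ranges. The number of all genes called also moved with the library left out. Against MEFs, carbidopa had 7 to 13 members higher and 6 to 8 lower (median -0.0247 to 0.21), LY-364947 7 to 10 and 6 to 12 (median -0.10 to 0.0417; 6 lower without MEF 1, MEF 2, LY-364947 1 or LY-364947 2), and CHIR-99021 9 to 16 and 4 to 8 (median 0.21 to 0.34). CHIR-99021 against carbidopa had 0 to 15 higher and 0 to 2 lower (median 0.20 to 0.41), and against LY-364947 0 to 15 higher (median 0.33 to 0.49). LY-364947 against carbidopa had 0 to 7 lower (median -0.20 to 0.0018). The summed RPKM ranged from 225 to 227 (MEFs), 209 to 252 (carbidopa), 208 to 211 (LY-364947) and 268 to 278 (CHIR-99021), and the posterior share from 36.4% to 36.9%, 29.8% to 30.1%, 29.2% to 30.6% and 28.1% to 28.8%.

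With the replicate number as a block, 10 members were higher and 8 lower under carbidopa, 10 and 10 under LY-364947 and 13 and 6 under CHIR-99021, with 4 higher against carbidopa and 9 against LY-364947. Under the block Hoxc9 became higher under CHIR-99021 against MEFs (0.57, adjusted p = 0.0378). The labels give only a number, and deviations of same-numbered libraries correlated at -0.26 to 0.23, so the numbers were not taken to pair the libraries.

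Calls of Hoxa6, with 4 to 34 reads, and of Hoxa13, with 3 to 20 reads, were among those lost under several alternatives. Reads of overlapping Hox and antisense genes could not be separated.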
